A study of Mus musculus with 12 samples.

Results

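Arl4d, Trib1, Zfp185 and Hist1h1c are 4 genes of the mouse prefrontal cortex (PFC) that were picked out for the size of their difference between cocaine and saline 24 h after the last injection, outside the immediate-early genes and the clock genes. They are 4 of the 39430 gene names listed in all 3 tables of the series. All 4 were found, each on 1 locus per table. Since they were selected on their 24 h values, those values are given as a description. The selection had no stated threshold.

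The samples were PFC of C57BL/6 mice aged 10 weeks. The mice received repeated daily injections of saline or cocaine, and tissue was taken 2 h, 24 h or 7 d after the last one. The 6 groups (saline and cocaine at each of the 3 times) had 2 libraries each, and tissue of 5 mice was combined for each library. RNA was selected by poly(A) before sequencing. The deposited tables hold 1 FPKM (fragments per kilobase of a gene's transcripts, divided by library size) per gene and group, pooled over both libraries. The spread between libraries is therefore unknown, and no difference below could be tested against it or carries an error. The depth behind each FPKM is unknown from the tables.

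The 4 genes belong to unrelated families. Arl4d encodes a small GTPase of the ARF-like family, which at the plasma membrane recruits cytohesins, the exchange factors that activate ARF GTPases and so act on actin and membrane traffic. Trib1 encodes a Tribbles pseudokinase, which brings the ubiquitin ligase COP1 to C/EBP transcription factors for their degradation and also binds the kinase MEK1. Zfp185 encodes a LIM-domain protein that associates with actin and is best known from epithelia. Hist1h1c encodes the linker histone H1.2, which binds the DNA between nucleosomes and compacts chromatin. In the PFC, cocaine raises dopamine and other monoamines at synapses, and neuronal activity and cAMP signaling then switch on immediate-early genes within minutes to hours.

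The promoters of Arl4d and Hist1h1c are shown because they held a cAMP response element, known from activity-regulated genes, and an H1 box, known from linker histone genes. Both are the RefSeq sequence on GRCm38.p6, 300 bases from 250 before to 50 after the annotated start, 5′ to 3′ on the gene's strand (the + strand for both). The Arl4d window is chr11:101665291-101665590 and the Hist1h1c window, listed in RefSeq under the symbol H1f2, is chr13:23738557-23738856. Capitals mark every match to the motifs searched on both strands, which were the full cAMP response element TGACGTCA and its core TGACG, the clock E-box CACGTG, the AP-1 site TGACTCA, the H1 box AAACACA, the CCAAT box and the TATA box TATAAA.
Arl4d: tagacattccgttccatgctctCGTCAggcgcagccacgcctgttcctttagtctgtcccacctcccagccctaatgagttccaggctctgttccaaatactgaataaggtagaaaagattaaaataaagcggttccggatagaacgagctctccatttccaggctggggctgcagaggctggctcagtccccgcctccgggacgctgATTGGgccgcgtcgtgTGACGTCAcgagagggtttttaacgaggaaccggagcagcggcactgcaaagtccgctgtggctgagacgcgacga
Hist1h1c: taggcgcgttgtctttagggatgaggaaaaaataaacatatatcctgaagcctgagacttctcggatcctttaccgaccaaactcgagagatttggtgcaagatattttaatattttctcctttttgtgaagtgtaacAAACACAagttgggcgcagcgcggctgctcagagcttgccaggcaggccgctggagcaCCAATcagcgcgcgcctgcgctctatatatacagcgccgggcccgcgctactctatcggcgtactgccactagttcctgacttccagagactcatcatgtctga
The Arl4d promoter held the full cAMP response element, the palindrome bound by CREB, which begins 26 bases before the start. Of 32851 promoters of the same length, 1.79% held this motif. The core TGACG, which 20.8% of the promoters held, occurs in it on both strands and once more on the opposite strand at base 23, and an inverted CCAAT box (37.4% of promoters) begins at base 209. The Hist1h1c promoter held the H1 box, an element of linker histone promoters found in 7.18% of all promoters, at base 139, and a CCAAT box at base 197. The Zfp185 promoter (chrX:72987089-72987388) held an inverted CCAAT box at base 88 and none of the other motifs. The E-box (7.15% of promoters), the AP-1 site (5.2%) and the exact TATAAA form of the TATA box (13.6%) were not among the letters of these 3 windows. Other forms were not searched, such as the tatatata stretch in the Hist1h1c window. These matches describe the sequence and do not show that a factor bound there.

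The Zfp185 locus also holds the gene of a microRNA, Mir2137, whose listed values moved with those of Zfp185. The hairpin lies at chrX:72992079-72992144 on the + strand of GRCm38.p6, 4827 bases from the RefSeq start of Zfp185 at position 72987252. In the gencode annotation on NCBIM37, Mir2137 lies in an intron of Zfp185 on the same strand, and 0 of 22 exons from 4 transcripts overlap it. Capitals mark the mature microRNA within the hairpin in the first line and the seed (bases 2 to 8) in the second.
Mir2137 hairpin: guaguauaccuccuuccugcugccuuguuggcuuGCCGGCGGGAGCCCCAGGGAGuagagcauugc
mmu-miR-2137: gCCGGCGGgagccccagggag
The hairpin has 66 bases, and 85.7% of the 21 bases of the mature microRNA are G or C.

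Arl4d was higher in cocaine than in saline at all 3 times, and the difference shrank from 2 h to 7 d. Its locus on GRCm38 is chr11:101665541-101667832. At 2 h its level was 5.95 FPKM in saline and 12.6 FPKM in cocaine. At 24 h it was 6.29 and 10.5 FPKM, and at 7 d 6.48 and 7.62 FPKM. The 3 cocaine values lay above the 3 saline values, the saline values differed little among themselves, and the order of the levels was cocaine at 2 h, 24 h and 7 d followed by saline at 7 d, 24 h and 2 h. Each table was normalized separately by the authors, so that levels are set side by side across times under the assumption of like scaling. Over 12843 genes, the median difference in saline level between tables was 0.02 (24 h less 2 h) and −0.01 (7 d less 2 h) on the log2(FPKM + 1) scale.

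Ratios below are log2((cocaine FPKM + 1)/(saline FPKM + 1)), which understates the change of genes with low levels. For Arl4d this log2 ratio was 0.97 (2 h), 0.66 (24 h) and 0.21 (7 d), beside medians of 0.02, 0.01 and −0.01 over all genes with a mean of at least 1 FPKM. A log2 ratio of at least 0.5 in either direction was used as a fold limit. At 2 h, 2.07% of 13359 genes were higher in cocaine by this limit and 1.22% were lower. At 24 h, 1.51% of 13565 genes were higher and 1.16% lower, and at 7 d 1.19% of 13429 genes were higher and 1.96% lower. Arl4d was past the limit at 2 h and 24 h but not at 7 d. Its rank from the top was 123 (2 h), 167 (24 h) and 1201 (7 d).

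Trib1 was likewise higher in cocaine at all 3 times, with its largest ratio at 2 h. Its locus on GRCm38 is chr15:59648350-59656550 in the 2 h and 24 h tables. Its level at 2 h was 2.68 FPKM in saline and 7.72 FPKM in cocaine. The levels were 3.63 and 5.86 FPKM at 24 h, and 2.75 and 3.95 FPKM at 7 d. The groups did not overlap, although the lowest cocaine value (7 d) and the highest saline value (24 h) were close. The saline level of Trib1 was itself higher at 24 h than at 2 h by 0.33 and than at 7 d by 0.31 on the log2(FPKM + 1) scale. Its log2 ratio of cocaine to saline was 1.24 (2 h), 0.57 (24 h) and 0.40 (7 d), which put it past the fold limit at 2 h and 24 h. Its rank from the top was 96, 183 and 230.

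**Figure D1:**
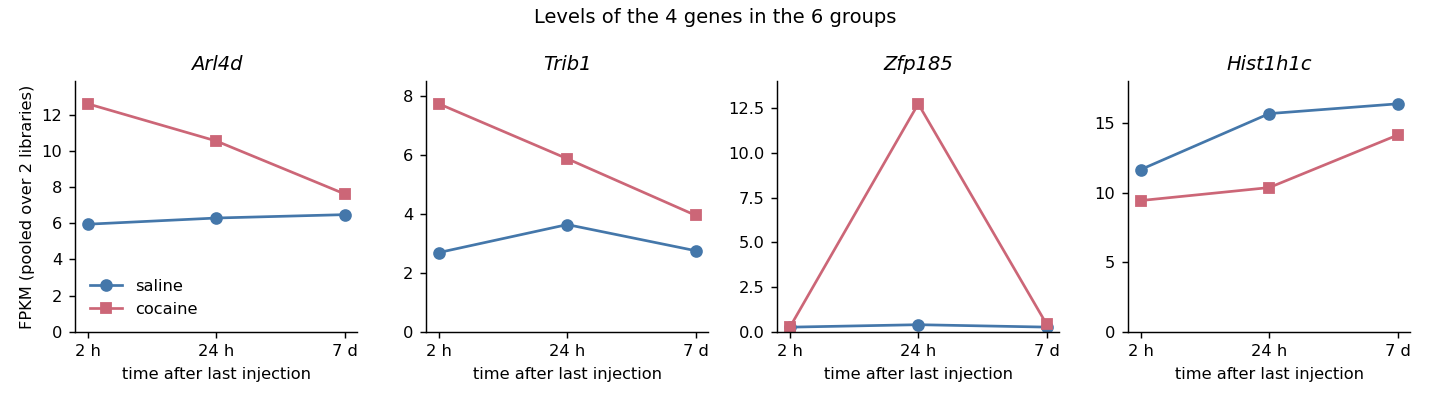
Level of each of the 4 genes in FPKM (vertical axis, from 0, 1 scale per gene) at 2 h, 24 h and 7 d after the last injection, with 1 value per group pooled over 2 libraries (blue circles saline, red squares cocaine; no error bars, since values per library are not in the tables). The cocaine values of Arl4d and Trib1 lie above all their saline values, Zfp185 stands at 12.8 FPKM in cocaine at 24 h and at 0.425 FPKM or less in the other groups, and Hist1h1c is lower in cocaine at each time.

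Of the 12843 genes that had a mean of at least 1 FPKM at all 3 times, 441 (3.43%) had all 3 cocaine values above all 3 saline values, as Arl4d and Trib1 did. This pattern includes the 24 h values on which both genes were selected, so the share is a description and not a test. The 2 h and 7 d samples came from other mice than the 24 h samples on which the genes were selected. The choice was made with earlier results of these data known, so the 2 h and 7 d values may not be independent of it. At 2 h both genes exceeded the fold limit, which 2.07% of all genes did in this direction. The drop of the log2 ratio from 2 h to 24 h was 0.31 for Arl4d and 0.68 for Trib1. The ratio fell at least as far in 7.07% and 1.14% of the 12843 genes, with rises not counted. From 24 h to 7 d the log2 ratio of Arl4d fell by 0.46 and that of Trib1 by 0.17. A fall at least as large was seen in 366 genes for Arl4d and in 2890 genes for Trib1. Each of these falls uses the 24 h ratio on which the genes were selected. The other genes were not selected in this way, so the counts and shares do not measure how unusual the falls were.

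Zfp185 had a different course, with a single high value in cocaine at 24 h. Its locus on GRCm38 is chrX:72987339-73031543. Its level was 0.259 FPKM in saline and 0.263 FPKM in cocaine at 2 h. At 24 h it was 0.397 FPKM in saline and 12.8 FPKM in cocaine, and at 7 d 0.262 and 0.425 FPKM. Thus 5 of the 6 groups were under 1 FPKM and 1 group was at a level above that of Arl4d in any group. The ratio of the FPKM values at 24 h was 32.1, and the log2 ratio with a pseudocount of 1 was 3.30. Zfp185 passed the limit of a mean of 1 FPKM only at 24 h, through its cocaine group, so that a gene at its saline level could only be kept if it differed. Its log2 ratio was 0.00 at 2 h and 0.18 at 7 d. The 7 d value rests on the pseudocount, since it was 0.54 with a pseudocount of 0.1 and 0.70 without one, past the fold limit of 0.5, at levels under 1 FPKM in both groups.

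At 24 h, 37 of 13565 genes had a larger log2 ratio than Zfp185. Of these, 34 were listed at 0 in saline. The 15 that matched RefSeq included no protein-coding gene, and 12 of them were shorter than 300 bases, among them the Y RNA genes Rny1 (0 in saline, 230.3 FPKM in cocaine) and Rny3 (0 and 259.5 FPKM). Among the 11556 kept genes that matched RefSeq and are listed there as protein coding, Zfp185 therefore had the highest log2 ratio. By the same count Arl4d was number 20 and Trib1 number 27 from the top, and Hist1h1c number 14 from the bottom. Genes without a RefSeq match were left out of this count. Since these genes were selected on their 24 h values, the ranks describe the selection and are not a test. Zfp185 was itself kept only through its cocaine group. Genes listed at 0 in 1 group were not limited to saline at 24 h: 57 kept genes were at 0 in saline and 79 at 0 in cocaine.

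Mir2137, which the tables place on the same locus as Zfp185, moved with it. Mir2137 was listed at 0 in both groups at 2 h and at 7 d. At 24 h it was listed at 0 in saline and at 1.2e+07 FPKM in cocaine. The same single group thus held the high value of both genes, and the part of Mir2137 in the Zfp185 value was not tested. Among the microRNA genes listed at 24 h (846), Mir2137, Mir320 and Mir6236 were above 1000 FPKM in a group. At the 2 h and 7 d times Mir320 and Mir6236 were the ones above that level. FPKM divides by transcript length, and the hairpin has 66 bases.

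The neighbours of Zfp185 did not share its high value. Nsdhl, a sterol synthesis gene upstream, was at 10.6 FPKM in saline and 9.31 FPKM in cocaine at 24 h. Pnma5, which begins 2437 bases after the locus, was at 0.268 and 0.232 FPKM, and Pnma3 was at 3.20 and 3.25 FPKM. Gm14684, 4994 bases before the locus, was listed at 0 in all 6 groups.

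**Figure D2:**
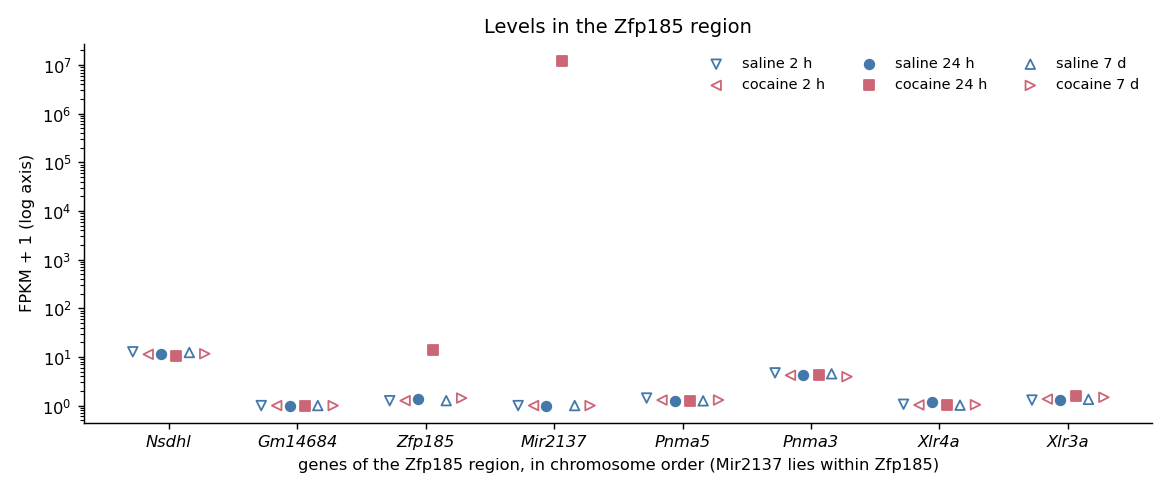
FPKM + 1 on a log axis for the genes around Zfp185 in chromosome order (horizontal axis, not to distance), with 1 point per group (blue saline, red cocaine; filled symbols 24 h, open symbols 2 h and 7 d). Zfp185 and Mir2137 stand out in cocaine at 24 h only (12.8 and 1.2e+07 FPKM), while Nsdhl, Pnma5 and Pnma3 stay at like levels in the 6 groups.

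Zfp185 is best known from epithelia, and markers of epithelium were low. Its 7 listed markers summed to 2.49 to 3.40 FPKM over the 6 groups. At 24 h the sum was 3.40 FPKM in saline and 3.16 FPKM in cocaine, with Krt10 and Cdh1 making up most of it in both groups. Krt5 was at 0 in both groups, and Krt14 and Krt8 were at 0 in cocaine and under 0.1 FPKM in saline. Cdh1 (1.63 FPKM in saline and 1.35 FPKM in cocaine) and Krt18 (0.0211 and 0.0195 FPKM) were lower in cocaine. Epcam (0.069 and 0.1 FPKM) and Krt10 (1.65 and 1.69 FPKM) were higher. The part of the epithelial markers in the Zfp185 value was not tested. Markers of skeletal muscle summed to 0.122 to 0.725 FPKM over the 6 groups, with the highest sum in the same group as Zfp185 (0.588 FPKM in saline and 0.725 FPKM in cocaine at 24 h), and their part in the Zfp185 value was not tested.

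Hist1h1c was lower in cocaine than in saline at all 3 times, with the largest difference at 24 h. Its locus on GRCm38 is chr13:23738808-23740367. The level was 11.7 FPKM in saline and 9.44 FPKM in cocaine at 2 h. It was 15.7 and 10.4 FPKM at 24 h, and 16.4 and 14.2 FPKM at 7 d. Within each time cocaine was lower, but the groups overlapped across times, since the cocaine value at 7 d exceeded the saline value at 2 h. The highest and the lowest of its 6 values differed 1.74-fold, beside 2.12-fold for Arl4d, 2.88-fold for Trib1 and 49.2-fold for Zfp185. The log2 ratio of Hist1h1c was −0.28 (2 h), −0.55 (24 h) and −0.20 (7 d). It passed the fold limit at 24 h, where it ranked 141 from the bottom, and it ranked 558 and 1963 from the bottom at 2 h and 7 d. A log2 ratio below 0 at all 3 times was found for 14.4% of the 12843 genes, and one above 0 at all 3 times, as for Arl4d and Trib1, for 19% of them.

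The saline level of Hist1h1c also differed between tables. It was higher at 24 h than at 2 h by 0.40 and at 7 d than at 2 h by 0.46 on the log2(FPKM + 1) scale. In cocaine the corresponding differences were 0.12 and 0.54. The larger gap at 24 h thus combined a higher saline level with a cocaine level near that of 2 h. From 2 h to 24 h its log2 ratio fell by 0.27, and that of 8.71% of the 12843 genes fell at least as far. The fall ends at the 24 h ratio on which Hist1h1c was selected, so this share is no test. Hist1h1c spans 1560 bases in the tables and 725 bases in RefSeq. Most messenger RNAs of replication-dependent histones end in a stem-loop without poly(A), so that poly(A) selection sees the polyadenylated part of them.

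**Figure D3:**
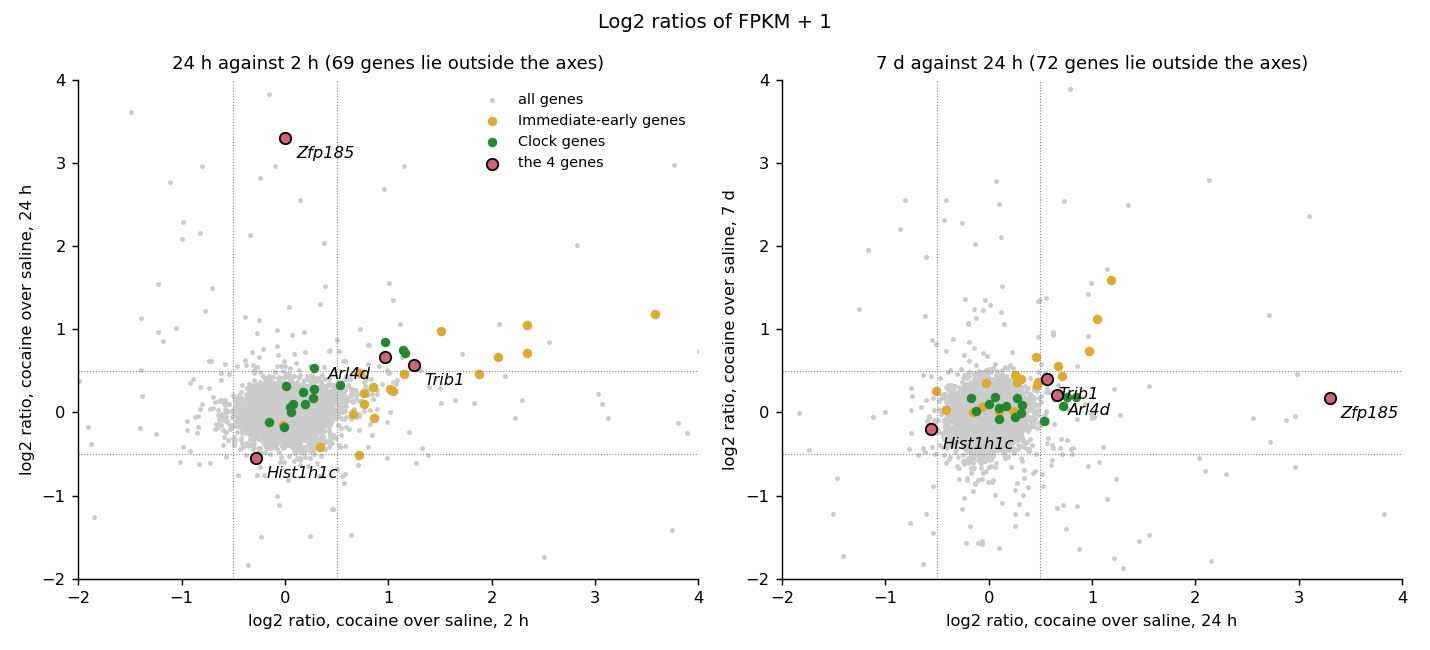
Log2 ratio of cocaine to saline (FPKM + 1) at 24 h against 2 h (left) and at 7 d against 24 h (right), with 1 point per gene (grey all genes with a mean of at least 1 FPKM at all times, yellow immediate-early genes, green clock genes, red the 4 genes) and dotted lines at the fold limit of 0.5. Arl4d (0.97, 0.66) and Trib1 (1.24, 0.57) lie among clock and immediate-early genes at 2 h and 24 h, Zfp185 (0.00, 3.30) lies high at 24 h alone, and Hist1h1c (−0.28, −0.55) lies below 0 at each time.

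The immediate-early and clock genes, which the selection left out, give the scale of the changes. Of 20 immediate-early genes, 18 were higher by the fold limit at 2 h, and the median log2 ratio was 1.03. At 24 h 7 were higher and 1 was lower, with a median of 0.38. Arc, a synaptic regulator of glutamate receptor traffic, had the largest log2 ratio (1.19). The transcription factors Fos (1.05), Egr1 (0.98), Egr2 (0.94), Junb (0.71), Nr4a1 (0.67) and Nr4a3 (0.50) were the others past the limit. Egr3, of the same family as Egr1, was at −0.41. Nr4a2, an orphan nuclear receptor, was the gene that was lower (−0.51). The log2 ratios of Arl4d (0.66) and Trib1 (0.57) at 24 h lay near that of Nr4a1 and above the median of the list. At 7 d, 5 of 18 immediate-early genes with a mean of at least 1 FPKM were higher and none was lower, with a median of 0.37.

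Of 16 clock genes, 4 were higher at 2 h and 4 at 24 h, with medians of 0.18 and 0.26, and 0 of 15 at 7 d, with a median of 0.08. Those past the limit at 24 h were the repressors Per2 (0.85), Bhlhe40 (0.76), Per1 (0.72) and Ciart (0.54). Arntl, the activator partner of Clock, was at −0.12, and Npas2, a relative of Clock, was at −0.18. Arl4d lay between Per1 and Ciart at 24 h. At 7 d neither Arl4d nor the clock list had a value past the limit. Few genes of any kind did (1.19% higher and 1.96% lower).

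No relative of Arl4d was past the fold limit, which few genes of any kind passed. At 24 h 1.51% of all genes were higher by it and 1.16% lower, so that short lists, here and below, can hold none. Of 27 ARF-like GTPases, ARFs and cytohesins other than Arl4d, 24 had a mean of at least 1 FPKM, and none of the 24 was past the limit at any time. Their median log2 ratio was 0.02 (2 h), 0.01 (24 h) and −0.01 (7 d). The closest relatives, Arl4a (15.3 FPKM in saline, 15.8 FPKM in cocaine at 24 h) and Arl4c (13.2 FPKM in cocaine), had log2 ratios of 0.04 and 0.12 at that time. Both were expressed above Arl4d in saline. Cyth2, the most abundant cytohesin at 24 h, was at −0.08, and the whole list ran from −0.21 (Arl15) and −0.13 (Cyth4) to 0.14 (Arl10) and 0.15 (Cyth1).

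Of the Tribbles family and its partners, 17 of 19 listed names had a mean of at least 1 FPKM. At 2 h 1 was past the limit, and at 24 h and 7 d 0 were. The median log2 ratio was 0.05, −0.01 and 0.01. The gene past the limit at 2 h was Trib2, the paralog that shares COP1 binding with Trib1. Trib2 was at 9.03 FPKM in saline and 13.6 FPKM in cocaine at 2 h (log2 ratio 0.55), and its log2 ratio was 0.29 at 24 h and 0.22 at 7 d. As for Trib1, the ratio of Trib2 was largest at 2 h. The third paralog, Trib3, was under 1 FPKM at 24 h. Rfwd2, which encodes COP1, was at −0.13 at 24 h, and Det1, a partner of COP1 in the ligase, was at 0.21. The C/EBP genes that the complex acts on had log2 ratios of −0.03 (Cebpa), 0.06 (Cebpb) and −0.23 (Cebpd), and Map2k1, which encodes MEK1, was at 0.09.

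No other LIM-domain cytoskeletal protein was past the limit either, beside 1.51% of all genes higher and 1.16% lower at 24 h. Of 34 listed, 30 (2 h), 29 (24 h) and 30 (7 d) had a mean of at least 1 FPKM, and 0 were past the limit at any time. The medians were 0.11, 0.00 and 0.08. At 24 h the list ran from −0.37 (Mical2, an actin-oxidizing enzyme) to 0.21 (Ablim3, an actin-binding protein). Csrp1 and Csrp2, which bind the actin crosslinker alpha-actinin, were at −0.17 and 0.18.

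The core histone genes had no ratio as low as that of Hist1h1c at 24 h, and most were below 0 at 24 h and 7 d. Of 34 replication-dependent core histones, 13 (2 h), 14 (24 h) and 15 (7 d) had a mean of at least 1 FPKM. None passed the fold limit in either direction at any time. At 2 h, 9 of the 13 were above 0 and the median log2 ratio was 0.08. At 24 h 11 of 14 were below 0 with a median of −0.26, and at 7 d 15 of 15 were below 0 with a median of −0.26, which was lower than the ratio of Hist1h1c at that time (−0.20). The median over all genes was 0.01 at 24 h and −0.01 at 7 d. Examples at 24 h are the H2B genes Hist1h2bh (8.70 FPKM in saline, 6.50 FPKM in cocaine, log2 ratio −0.37) and Hist1h2bn (−0.36), with Hist1h4h (0.22), an H4 gene, and Hist3h2ba (0.21) at the other end. Histone genes of a cluster are near-identical in coding sequence, so that reads can be split among them.

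Among other linker histones, 2 of 10 had a mean of at least 1 FPKM at 2 h and at 24 h, and 3 did at 7 d, with 0 past the limit. The medians were −0.11, −0.04 and −0.10. H1f0, the linker histone of cells that no longer divide, was at 42.6 FPKM in saline and 39.8 FPKM in cocaine at 24 h (log2 ratio −0.09), and H1fx was at 0.02. Hist1h1e, the next cluster member by level, had 1.21 FPKM in saline and 0.754 FPKM in cocaine at 24 h and did not reach the mean of 1 FPKM. Hist1h1c was therefore the most abundant linker histone of the cluster in these tables at 24 h.

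The 8 replacement core histones, which are made outside S phase and carry poly(A), had 0 past the limit. Their medians were −0.02, −0.05 and −0.13, and 5, 7 and 8 of them were below 0. At 24 h they ran from −0.11 (H2afy) and −0.10 (H2afj) to −0.01 (H2afv) and 0.16 (H2afx, the variant phosphorylated at DNA breaks). Of 14 genes of S phase and mitosis, 7 had a mean of at least 1 FPKM at 2 h and 8 at each later time, with 0 past the limit and medians of −0.02, −0.03 and −0.05. Mcm7 and Mcm2, subunits of the replicative helicase, were at −0.31 and −0.23 at 24 h, and Mcm6 of the same helicase was at 0.23, beside 0.09 for the cyclin Ccna2.

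**Figure D4:**
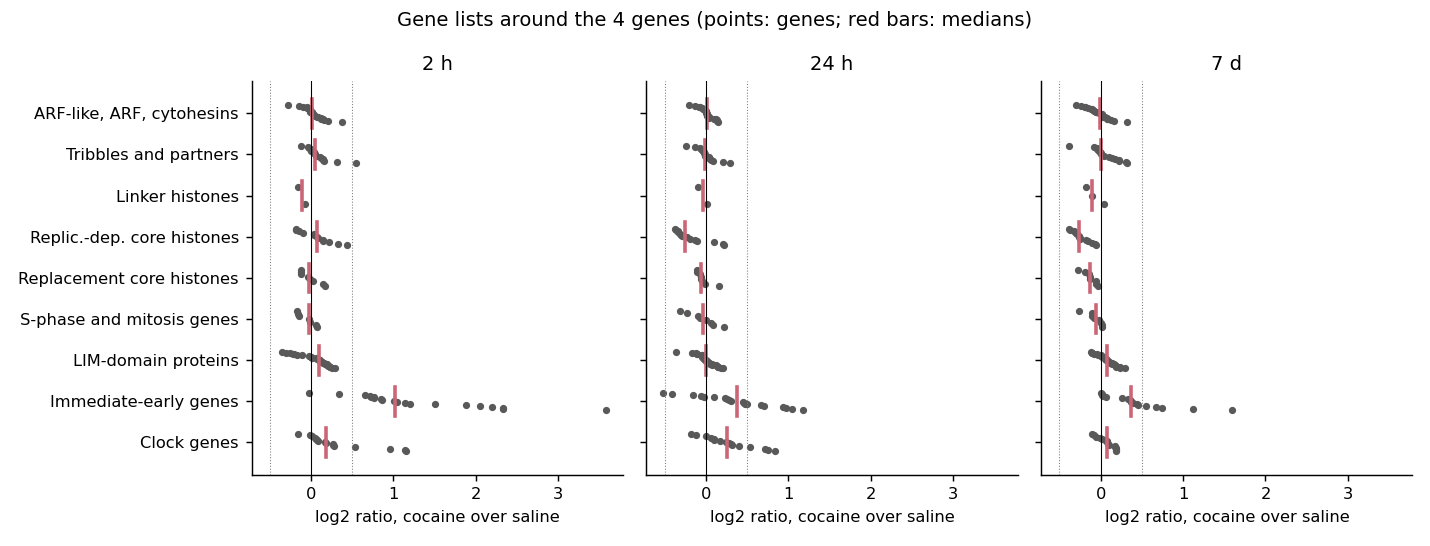
Log2 ratio of cocaine to saline (FPKM + 1) of each gene with a mean of at least 1 FPKM in 9 gene lists (rows; the 4 genes themselves left out) at 2 h, 24 h and 7 d, with red bars for medians and dotted lines at the fold limit of 0.5. The lists around Arl4d, Trib1 and Zfp185 centre near 0, the replication-dependent core histones have medians of 0.08, −0.26 and −0.26, and the immediate-early genes have medians of 1.03, 0.38 and 0.37.

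The genes most like each of the 4 were found among 13413 genes by the distance between their 6 log2(FPKM + 1) values after each gene's mean was taken off (0 is an identical pattern). For Arl4d they were Gpr3 (distance 0.239), a receptor that raises cAMP, Stk40 (0.25), a pseudokinase related to the Tribbles family, and Csrnp1 (0.295), a nuclear protein. For Trib1 they were Dusp6 (0.128), a phosphatase of ERK, Klf10 (0.267), a transcription factor, and Arl4d itself (0.317). Dusp6 followed Trib1 closely, with 18.4 FPKM in saline and 25.7 FPKM in cocaine at 24 h. For Hist1h1c they were Fabp7 (0.174), a fatty acid binding protein of astrocytes and progenitors, Atad3aos (0.211), an antisense gene whose reads cannot be told from its partner's without strand, and Helq (0.239), a DNA helicase. Fabp7 was at 42.3 FPKM in saline and 31.2 FPKM in cocaine at 24 h.

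For Zfp185 the nearest were Gm23968 (0.189), Snora34 (0.244), a small nucleolar RNA, and Gm24303 (0.285). All 3 were listed at 0 in 5 groups and at 9.93, 8.19 and 11.3 FPKM in cocaine at 24 h. With the 3 log2 ratios in place of the 6 values, the nearest were Csrnp1, Per2 and Bhlhe40 for Arl4d, and Dusp6, Irs2 and Dusp5 for Trib1. For Zfp185 they were Snora34, Gm23968 and Gm22061, and for Hist1h1c Trmt11, Gm11942 and Lama5. Dusp6, Csrnp1, Snora34 and Gm23968 were thus found by both measures, and the neighbours of Hist1h1c differed between them.

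**Figure D5:**
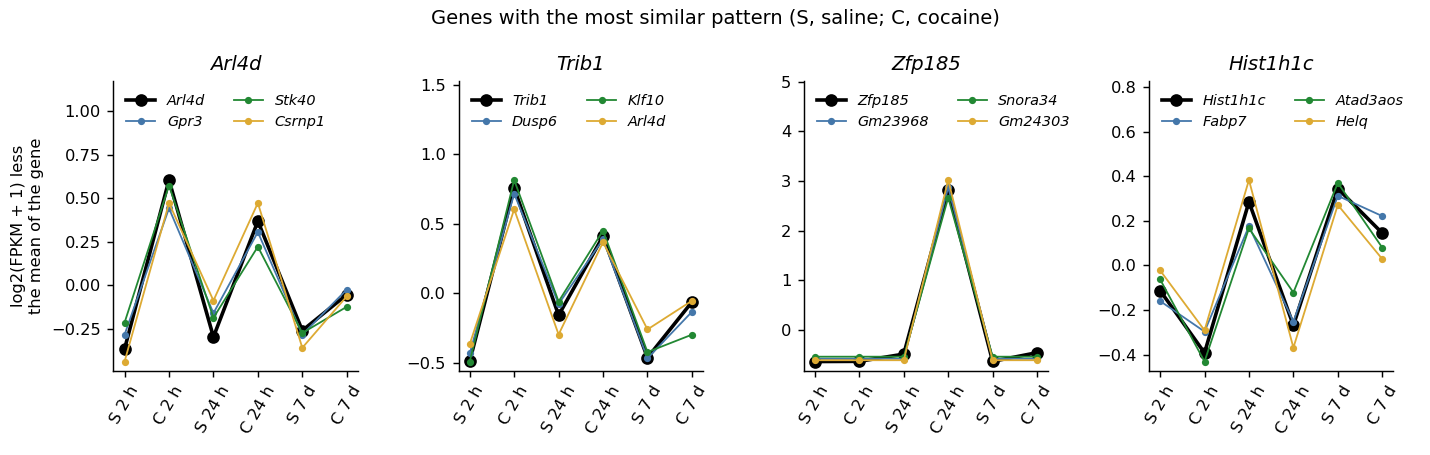
Log2(FPKM + 1) less the mean of the gene (vertical axis, own scale per panel) in the 6 groups (S saline, C cocaine) for each of the 4 genes (black) and the 3 genes at the smallest distance from it (colours). Dusp6 lies close to Trib1 (distance 0.128), and the genes nearest to Zfp185 peak in cocaine at 24 h as it does.

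The genes beside Arl4d, Trib1 and Hist1h1c on the chromosome were compared with them. Dhx8, which begins 65083 bases after Arl4d, had log2 ratios of 0.19, 0.12 and 0.03 at the 3 times in turn. Rnu2-10, 7112 bases before Arl4d, had a log2 ratio of −0.76 at 24 h, against the direction of Arl4d, at a level of 0.474 FPKM in cocaine. Nsmce2, 46666 bases before Trib1, had log2 ratios of 0.03, −0.05 and −0.19. Hist1h3c, 4645 bases after Hist1h1c, was under 0.1 FPKM in every group, and Gm11338 before it was listed at 0. Gm7083, after Trib1, was under 0.1 FPKM.

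Markers of the cortex were present in all 6 groups, and in bulk tissue fewer cells of a type and less RNA per cell cannot be told apart. Summed FPKM over the groups ran from 1384 to 1644 for excitatory neurons, from 390.7 to 474 for interneurons, from 312.7 to 366.8 for astrocytes, from 583.2 to 747.8 for oligodendrocytes, from 161 to 176.9 for microglia and from 121.2 to 137.5 for endothelial cells. The sums were 42.6 to 56.9 for smooth muscle and pericytes, 54.7 to 67.7 for meningeal fibroblasts and 323.3 to 529.5 for red blood cells. They were 18.8 to 22.5 for striatal neurons, 6.94 to 8.43 for olfactory bulb and 1.38 to 7.43 for choroid plexus. The oligodendrocyte sum was lower in cocaine at each time, as Hist1h1c was, with 583.2 FPKM against 623.7 FPKM at 2 h, 617.7 against 747.8 FPKM at 24 h and 721.3 against 732.3 FPKM at 7 d. The interneuron sum was lower in cocaine at each time too, with 390.7 against 410.8 FPKM, 465.4 against 474 FPKM and 414.4 against 452.1 FPKM in the same order. At 24 h alone the sums of astrocytes (326.8 FPKM in cocaine and 366.8 FPKM in saline) and meningeal fibroblasts (58.2 and 67.7 FPKM) were also lower in cocaine. So were those of excitatory neurons (1579 and 1644 FPKM) and, barely, of smooth muscle and pericytes (51.1 and 51.2 FPKM). The microglia sum was lower in cocaine at 24 h (161 and 174.4 FPKM) and at 7 d (175.6 and 176.7 FPKM). All 5 markers of each of these lists were above 0 in every group. The red blood cell sum was higher in cocaine at each time, as Arl4d and Trib1 were, with 503.8 FPKM against 323.3 FPKM at 2 h, 503.8 against 458.3 FPKM at 24 h and 529.5 against 452.4 FPKM at 7 d. The striatal sum was also higher in cocaine at each time, with 22.5 against 20.1 FPKM at 2 h, 21.8 against 20.0 FPKM at 24 h and 19.5 against 18.8 FPKM at 7 d. The endothelial sum was higher in cocaine by 137.2 against 121.2 FPKM at 2 h and 132.1 against 124.5 FPKM at 7 d, and was 137.5 FPKM in both groups at 24 h. The part of these cell types in the values of the 4 genes was not tested.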

How the data were processed

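The data were 12 RNA-seq libraries of mouse PFC, 2 per group, each from 5 pooled male mice. Per the labels' processing notes, the authors used CASAVA 1.8.2, Trimmomatic 0.32, TopHat2 2.0.12, Cufflinks 2.2.1 and Cuffdiff on GRCm38 (mm10), while their methods name mm9 and other versions. The loci matched GRCm38. The labels and the methods also differ in read length. The deposited values are FPKM, which the authors pooled over the 2 libraries of a group and normalized within each time point. The tables also hold the authors' own fold changes, test statistics, p-values and q-values, which were not used. The group names in the tables do not say which column is saline. It was assigned from the headings of the study's supplementary tables, and every direction rests on it.

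Ratios were log2((cocaine + 1)/(saline + 1)). Genes with a mean of at least 1 FPKM were kept, and the longest locus was taken per symbol. With 1 pooled value per group there was no test, and shares past a log2 ratio of 0.5 are given instead. Lists of relatives and of cell type markers were compared by counts, medians and sums. The genes named were, by rule, the 2 highest and 2 lowest of each list at 24 h, those past the fold limit at 24 h, the 3 nearest in pattern, and the nearest loci on the chromosome. Arl4a, Arl4c, Cyth2, Trib3, Cebpa, Cebpb, Map2k1, Hist1h1e, Nsdhl, Pnma3, Rny1, Rny3, Mir320, Mir6236 and the neighbours by ratio were named after their values were seen. The 4 genes and the lists were chosen with earlier results of these data known. Trib1 had no promoter entry. RefSeq matched 92.6% of the genes kept at 24 h by current or older symbol. The steps were tested on simulated data. Python 3.11.15, pandas 2.3.3, numpy 2.4.6 and matplotlib 3.10.9 were used.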

Additional observations from a re-analysis of the deposited data

How the results depend on the processing

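No paired analysis was possible because each table holds 1 value per group pooled over both libraries, and for the same reason no library could be left out. Of 60 alternative values of the log2 ratios of the 4 genes, 55 kept their sign and their side of the fold limit, and the ratios of all 4 at 24 h did so under every alternative run. Those values ran from 0.66 to 0.75 for Arl4d, from 0.56 to 0.69 for Trib1, from 3.29 to 5.01 for Zfp185 and from −0.60 to −0.55 for Hist1h1c. The 60 values include settings that left these genes untouched. Summing over all loci could not change them, since each had 1 locus, and leaving out failed rows returned the same ratios. The count of 55 therefore overstates how far the ratios were tried. With a pseudocount of 0.1, the 7 d log2 ratios of Trib1 (0.51) and Zfp185 (0.54) passed the limit, and so they did without a pseudocount (0.52 and 0.70). Centred on the median of all genes, Zfp185 at 2 h was at −0.0175.

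The share of genes past the limit moved more. With a pseudocount of 0.1 it was 3.12% higher and 2.18% lower at 2 h, 1.91% lower at 24 h and 1.89% higher at 7 d. Without a pseudocount it was 3.31% higher and 2.45% lower at 2 h, 2.01% lower at 24 h, and 2.02% higher and 3.05% lower at 7 d. Without the filter on FPKM it was 0.834% higher and 0.547% lower at 2 h, 0.637% higher and 0.546% lower at 24 h, and 0.578% higher and 0.835% lower at 7 d. With a fold limit of 1 on the log2 scale it was 0.883% higher and 0.561% lower at 2 h, 0.877% higher at 24 h and 1.02% lower at 7 d. Leaving out rows whose estimate failed was an alternative chosen after seeing the data, and it kept every ratio and share within the same class. Depth and the spread between libraries are unknown and limit every value here.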
